A study of Mus musculus with 10 samples.

Results

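Chemokines and their receptors were measured in 3 pieces of the heart of C57BL/6N mice: the wall of the right ventricle (RV), that of the left ventricle (LV) and the septum that divides them. The genes were those with an annotated symbol of Ccl, Cxcl, Ccr or Cxcr followed by a digit, together with Cx3cl1, Cx3cr1, Xcl1, Xcr1 and Ackr1 to Ackr4. Of 67 such genes in the annotation, 58 had a probe on the array (35 ligands, 19 signalling receptors and 4 atypical receptors). A gene was kept when its probe carried the scanner's flag for a signal well above background on all arrays of 1 region or more, which left 33 genes: 21 ligands, 8 signalling receptors and 4 atypical receptors. They stood among 14650 named genes that passed the same filter. The study asked which genes are expressed in the RV in particular, and compared the 3 regions of mice with no stated treatment. Its labels give the strain and the region but neither age nor sex. Total RNA of powdered tissue was hybridised to single-colour Agilent arrays, 1 sample per array, with 4 RV, 3 LV and 3 septum arrays. The labels do not say whether arrays with the same number came from the same heart or whether animals were pooled, and p-values measure the spread between these samples only.

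Chemokines are small secreted proteins that guide the movement of leukocytes. They are named after the spacing of the first cysteines of the protein (CC, CXC or CX3C) and act on receptors coupled to inhibitory G proteins. Many bind to heparan sulfate on cell surfaces, which holds them near the cells that made them. Atypical receptors bind chemokines without signalling through G proteins and take them up, store them or carry them across endothelium. In the heart, chemokines are known for drawing in monocytes through Ccr2 and for the Cxcl12 axis, which acts on blood vessel growth and progenitor cells.

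Levels are given as log2 of the background-subtracted signal minus the 75th percentile of the array, so that 0 is the 75th percentile of the probes. A level of 1 probe cannot be set against that of another, and only the same gene is compared across regions. A difference is that of the region means on the log2 scale, with its standard error (SE), and a call is an adjusted p below 0.05 in limma over all 30234 probes kept. As the tissue was taken whole, fewer cells of a type and less RNA per cell cannot be told apart. The defining cardiomyocyte genes were present in every region: 10 of 10 markers, among them Myh6, Tnnt2 and Ryr2, passed the filter. Their lowest region mean, that of Ryr2 in the RV, was 4.80, above the 75th percentile of the arrays. None was called between regions in limma, and 1 of the 10 differences lay above 0 for RV minus LV, where 39.4% of all genes did. With the slide as a block, 4 were called lower in the RV than in the LV (Actc1, Actn2, Ryr2 and Ttn), where 12.5% of all genes were. Actn2 and Ttn were then also called lower than in the septum.

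The arrays lay on 2 slides. The first held arrays 1 and 2 of each region and the second held RV arrays 3 and 4, LV array 3 and septum array 3, so each slide held all 3 regions. Between 53.7% and 64.0% of spots were well above background on an array, and no spot was saturated. The number of arrays limits the precision. Of the 33 genes, 27 were well above background on all 10 arrays. The other 6 were Ackr1, Ccl4, Ccr7, Ccr9, Cxcl10 and Cxcr4.

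**Figure D1:**
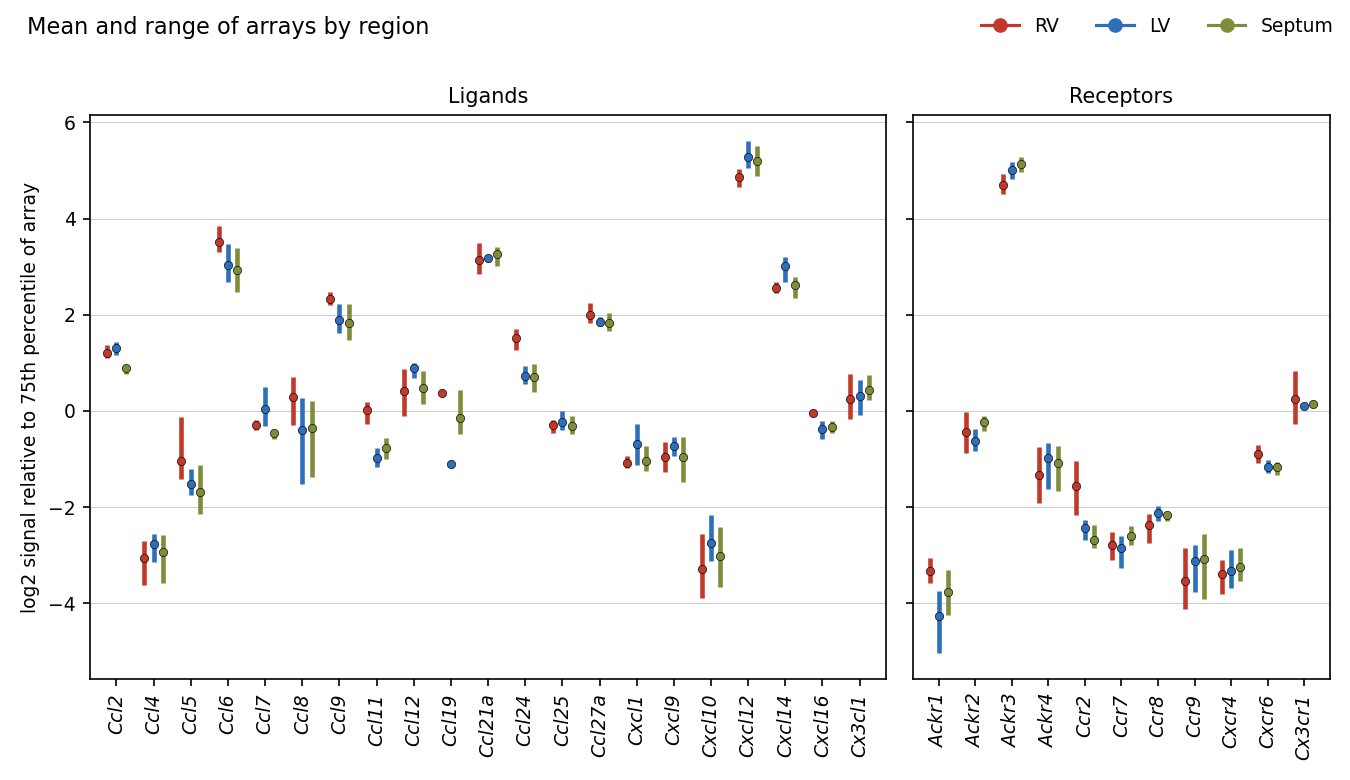
Levels of 32 of the 33 chemokine and receptor genes in each region, as log2 signal relative to the 75th percentile of the array. Points are means of 4 RV, 3 LV and 3 septum arrays and vertical lines span the lowest to the highest array. The RV line lies wholly above the LV line for Ackr1, Ccl11, Ccl19, Ccl24, Ccr2 and Cxcl16, and wholly below it for Cxcl12 and, by a margin too small to see, Cxcl14.

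Between the RV and the LV, 3 of the 33 genes passed the test and all 3 were higher in the RV: the ligands Ccl11, Ccl24 and Ccl19. That is 9.09% of the genes, where 3.14% of all named genes were called higher in the RV. No gene was called lower in limma, against 1.84% of all genes, and 3 were lower at an unadjusted p below 0.05 (Ackr3, Cxcl12 and Cxcl14), against 12.9% of all genes. Between the RV and the septum, 2 genes passed, Ccl11 and Ccl24, both higher in the RV, with 1.68% of all genes called in that direction. Lower in the RV than in the septum were 0 genes in limma, against 1.02% of all genes, and at an unadjusted p only Ackr3, against 8.41% of all genes. Between the septum and the LV no gene was called in either direction in limma, and 0 of all genes were called. The methods' analysis of variance with Tukey's correction called Ccl19 and Ccl2 between them, among 435 of 30175 probes, with no adjustment over probes. A variant run here with the overall p adjusted called Ccl19 only, among 168 probes. In that variant Tukey's p of the pair was not adjusted over probes. In limma at an unadjusted p below 0.05, Ccl19 was higher in the septum than in the LV, where 2.15% of all genes passed. Ccl2, Ccl7 and Cxcl14 were lower in the septum, where 0.765% passed. The F test across the 3 regions called Ccl11, Ccl19 and Ccl24, with 3.67% of all genes called. The comparisons with the RV share the RV arrays and are not independent.

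As a whole the genes did not move one way. The median difference between RV and LV over the 33 genes was -0.05, and that of all named genes was also -0.05. Above 0 lay 16 of 33 differences, while 39.4% of all genes did. Against the septum the median was 0.01, with -0.04 over all genes, and 17 of 33 differences lay above 0, with 40.8% of all genes. Between septum and LV, 14 of 33 differences lay above 0, with 41.8% of all genes, and the median was -0.04, with -0.02 over all genes. Scaling the arrays by their median instead left 9 of 33 above 0 in this last comparison.

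**Figure D2:**
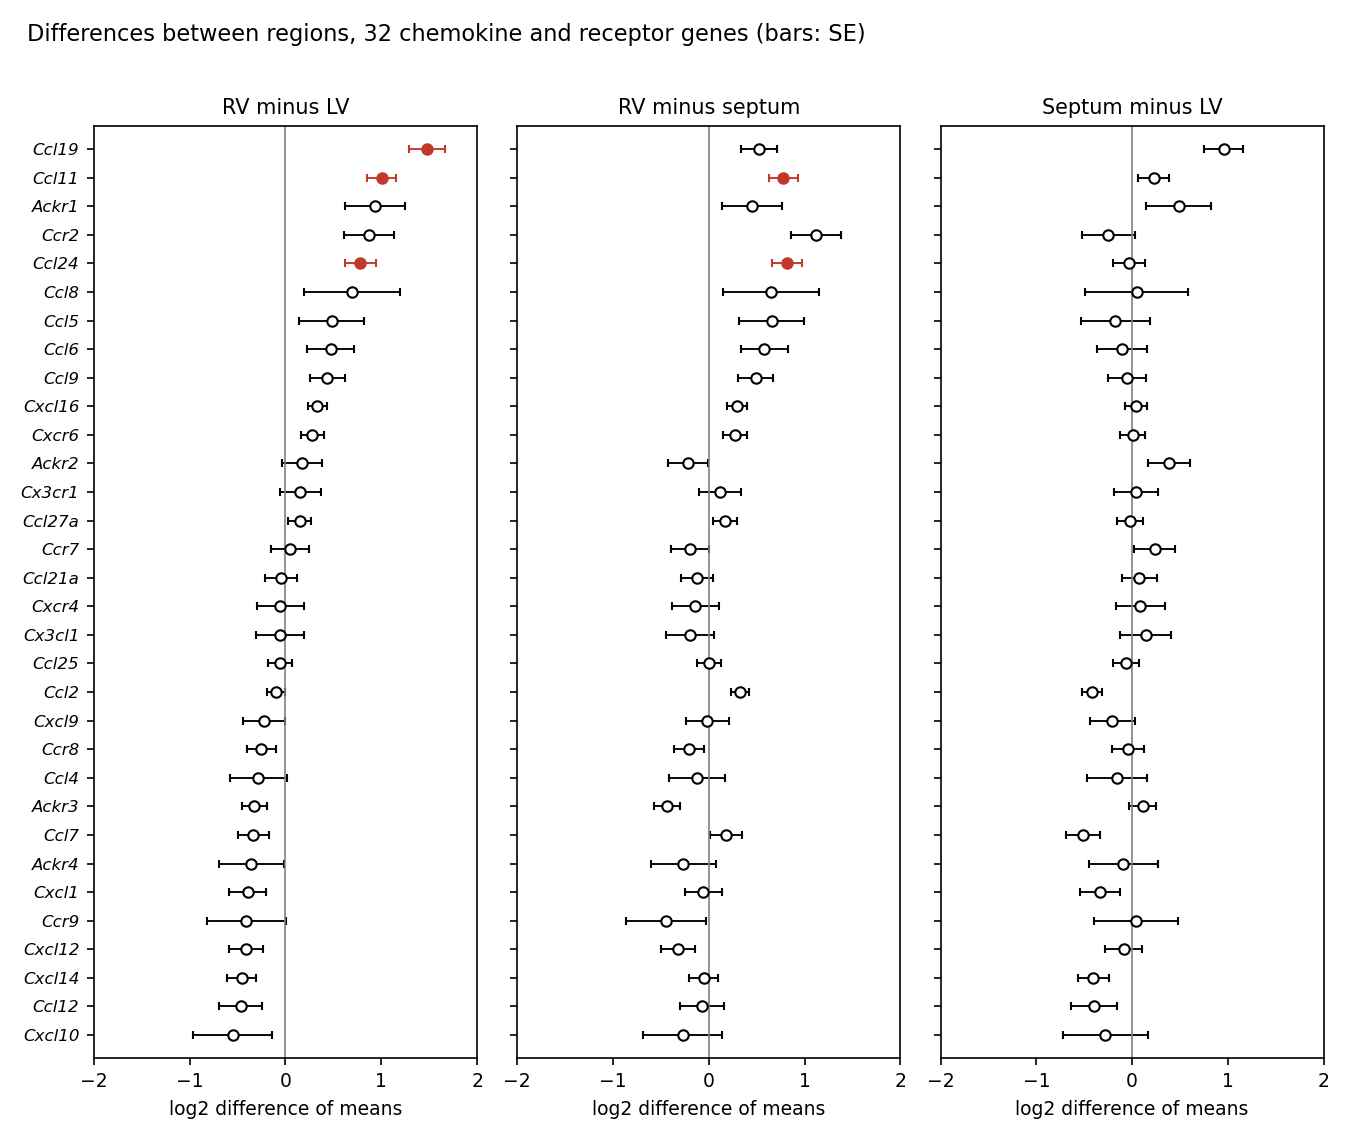
Differences between region means of 32 of the 33 genes on the log2 scale, for RV minus LV, RV minus septum and septum minus LV. Bars are SE of the fit and filled red points are genes called at an adjusted p below 0.05. In the left panel Ccl19, Ccl11 and Ccl24 are filled, at 1.48, 1.01 and 0.78; in the middle panel Ccl11 and Ccl24 are filled, at 0.78 and 0.81; in the right panel none is filled.

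Ccl11 (eotaxin-1) and Ccl24 (eotaxin-2) are ligands of Ccr3, the receptor that guides eosinophils. Ccl11 had levels of 0.18, 0.19, -0.26 and -0.04 on the RV arrays, -1.16, -0.77 and -1.03 on the LV arrays and -0.71, -0.57 and -1.004 on the septum arrays. All 4 RV arrays lay above all arrays of the other regions, while the LV and septum arrays overlapped. The mean was 0.02 ± 0.22 (SD, n = 4) in the RV, -0.99 ± 0.20 (SD, n = 3) in the LV and -0.76 ± 0.22 (SD, n = 3) in the septum. Ccl11 was 2.01-fold higher in the RV than in the LV (difference 1.01 ± 0.15, SE, limma adjusted p = 0.00896) and 1.72-fold higher than in the septum (0.78 ± 0.15, SE, limma adjusted p = 0.0363).

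Ccl24 had levels of 1.71, 1.56, 1.52 and 1.27 on the RV arrays, 0.94, 0.71 and 0.55 on the LV arrays and 0.98, 0.73 and 0.39 on the septum arrays. The lowest RV array was again above every LV and septum array. Its mean was 1.51 ± 0.18 (SD, n = 4) in the RV, 0.73 ± 0.19 (SD, n = 3) in the LV and 0.70 ± 0.30 (SD, n = 3) in the septum, so LV and septum lay within their own spread. It was 1.72-fold higher in the RV than in the LV (0.78 ± 0.16, SE, limma adjusted p = 0.0294) and 1.76-fold higher than in the septum (0.81 ± 0.16, SE, limma adjusted p = 0.0359).

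The call of Ccl11 between RV and LV held with any array left out, with differences of 0.92 to 1.12. That of Ccl24 was lost in 7 of the 10 fits that left out 1 array, with differences of 0.69 to 0.88. It held only without RV array 4, septum array 1 or septum array 3. Against the septum, Ccl11 lost its call in 8 of 10 such fits, all but those without RV array 3 or LV array 2 (0.66 to 0.87), and Ccl24 in 7 of 10, all but those without LV array 1, LV array 3 or septum array 1 (0.66 to 0.96). Within slide 1 the difference from the LV was 1.15 for Ccl11 and 0.81 for Ccl24, and within slide 2 it was 0.88 and 0.84. Slide 2 held 1 LV and 1 septum array, so its differences are given without p-values. From the septum, Ccl11 differed by 0.83 within slide 1 (adjusted p = 0.0691) and 0.85 within slide 2. Ccl24 differed by 0.78 within slide 1 (adjusted p = 0.0653) and 1.003 within slide 2.

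Ccr3 itself, the shared receptor, was not kept: it was well above background on 2 of the 10 arrays. Ccl26, the third eotaxin and the gene next to Ccl24, also reached that mark on only 2 arrays. In the annotation, Ccl11 stands in a row of CC chemokine genes in the order Ccl2, Ccl7, Ccl11, Ccl12 and Ccl8. Of those 5 neighbours only Ccl11 was called between regions, and the others are given with their receptor Ccr2 below.

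**Figure D3:**
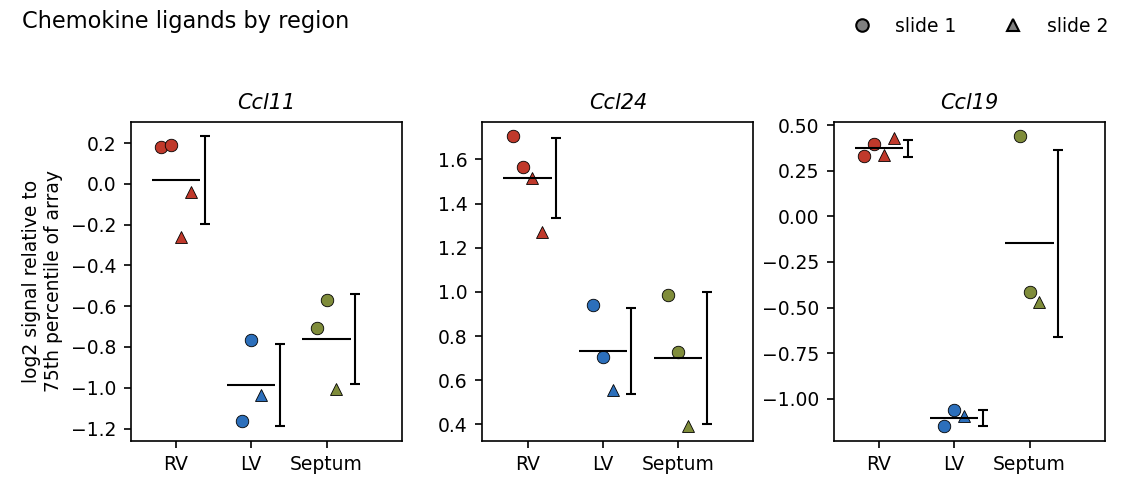
Levels of Ccl11, Ccl24 and Ccl19 on each array by region, as log2 signal relative to the 75th percentile of the array, with a separate vertical scale in each panel. Circles are arrays of slide 1 and triangles of slide 2; the horizontal line is the mean and the bar beside it the SD (n = 4 RV, 3 LV and 3 septum arrays). The RV arrays lie above all others for Ccl11 and Ccl24, and for Ccl19 septum array 1, at 0.44, lies with the RV arrays.

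Ccl19 is a ligand of Ccr7, the receptor that guides dendritic cells and naive T cells towards lymphoid tissue. Its levels were 0.33, 0.40, 0.34 and 0.43 on the RV arrays, -1.15, -1.06 and -1.10 on the LV arrays and 0.44, -0.41 and -0.47 on the septum arrays. The RV arrays lay within 0.10 of each other and so did the LV arrays, with no overlap, while septum array 1 was as high as the RV and the other septum arrays lay between RV and LV. The mean was 0.37 ± 0.05 (SD, n = 4) in the RV, -1.10 ± 0.04 (SD, n = 3) in the LV and -0.15 ± 0.51 (SD, n = 3) in the septum. Ccl19 was 2.78-fold higher in the RV than in the LV (1.48 ± 0.19, SE, limma adjusted p = 0.00466), which was the largest difference among the 33 genes in that comparison.

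The difference of Ccl19 between RV and LV was 1.45 to 1.50 with any array left out, and the call held in all 10 fits. It was 1.47 within slide 1 (adjusted p = 0.061) and 1.48 within slide 2, which held 1 LV array. Against the septum it was 0.52 ± 0.19 (SE, limma adjusted p = 0.25), which did not pass. That value depended on septum array 1: without it the difference was 0.82, with an adjusted p of 0.0038. Septum minus LV was 0.95 ± 0.20 (SE, limma adjusted p = 0.449), with all septum arrays above all LV arrays. Pseudogene copies of Ccl19 are annotated in the mouse genome without a probe of their own here, so the signal is that of any transcript the probe matches.

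Ccl21a, the other Ccr7 ligand kept, had levels of 2.84, 2.89, 3.50 and 3.32 on the RV arrays, 3.24, 3.21 and 3.10 on the LV arrays and 3.36, 3.02 and 3.41 on the septum arrays. The regions overlapped, and RV minus LV came to -0.05 ± 0.17 (SE). Near-identical copies (Ccl21b, Ccl21c and Ccl21d) had no named probe, so Ccl21a cannot be told apart from them. Ccr7 was well above background on 4 of 4 RV, 2 of 3 LV and 3 of 3 septum arrays, with levels of -2.60, -3.10, -2.52 and -2.97 on the RV arrays, -2.59, -3.26 and -2.66 on the LV arrays and -2.40, -2.79 and -2.62 on the septum arrays. Its arrays overlapped between all regions, at 0.04 ± 0.20 (SE) for RV minus LV and -0.19 ± 0.20 (SE) for RV minus septum.

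The upstream sequence of Ccl19 is shown because it is the called gene that has an entry in the RefSeq promoter table (assembly GRCm38.p6). It covers the 250 bases before the annotated start, chr4:42756366-42756615 on the minus strand, written 5′ to 3′ in the direction of the gene, and lower case throughout because none of the searched motifs occurs in it.
Ccl19: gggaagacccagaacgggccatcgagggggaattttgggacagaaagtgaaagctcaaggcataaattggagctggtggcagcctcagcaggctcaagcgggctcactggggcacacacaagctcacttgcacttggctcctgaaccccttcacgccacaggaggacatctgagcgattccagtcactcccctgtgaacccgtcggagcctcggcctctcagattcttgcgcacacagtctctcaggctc
The motifs searched on both strands were TATAAA, the STAT6-type pattern TTCNNNNGAA and the NF-kappaB consensus. Entries were found for 24 of the 33 genes. Over all 32851 promoters of the table, 12.4% held TATAAA, 5.85% held TTCNNNNGAA and 3.90% held the NF-kappaB consensus in the same 250 bases; counted by gene, with any of its promoters, these shares were 14.3%, 6.76% and 4.46%. Of the 24 genes with an entry, 9 held TATAAA, 0 held TTCNNNNGAA and 4 held the NF-kappaB consensus (Ackr2, Ccl9, Cxcl1 and Cxcl10). A match is a string of letters and not a measured binding site.

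For the ligands with an NF-kappaB match, 50 bases around a match are shown, as NF-kappaB is the textbook inducer of many chemokine genes; capitals mark the match. They lie at chr11:83578642-83578691, minus strand for Ccl9, chr5:90891154-90891203, plus strand for Cxcl1 and chr5:92348963-92349012, minus strand for Cxcl10, each written in the direction of its gene.
Ccl9: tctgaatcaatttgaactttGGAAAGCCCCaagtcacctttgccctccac
Cxcl1: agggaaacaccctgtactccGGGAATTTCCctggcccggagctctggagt
Cxcl10: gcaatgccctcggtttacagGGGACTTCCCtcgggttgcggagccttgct
Cxcl10 held another match further upstream. None of these 3 ligands was called between regions without a block. The levels of Cxcl1, a ligand of the neutrophil receptor Cxcr2, spanned -1.19 to -0.94 in the RV, -1.13 to -0.28 in the LV and -1.24 to -0.73 in the septum. Those of Cxcl10 and Ccl9 are given with their receptors and groups below.

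Ccr2 is the receptor that brings inflammatory monocytes from the blood into tissue. Its levels were -1.78, -2.16, -1.27 and -1.03 on the RV arrays, -2.34, -2.27 and -2.69 on the LV arrays and -2.36, -2.83 and -2.84 on the septum arrays. Each RV array was above each LV and septum array. The RV arrays of slide 2 were higher than those of slide 1. The difference was 0.87 ± 0.26 (SE) from the LV (limma adjusted p = 0.0967) and 1.12 ± 0.26 (SE) from the septum (limma adjusted p = 0.0663), and neither was called. Within slide 1 the differences were 0.33 and 0.63, and within slide 2, with 1 LV and 1 septum array, they were 1.54 and 1.69. Without RV array 2 both comparisons passed, at 1.07 and 1.32 (adjusted p = 0.0466 and 0.0398). With the slide as a block the difference from the septum passed, at 1.09 (adjusted p = 0.0392).

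The ligands of Ccr2 did not share its pattern across the arrays. Ccl2 (MCP-1), the main monocyte attractant, had levels of 1.19, 1.20, 1.09 and 1.37 on the RV arrays, 1.16, 1.43 and 1.35 on the LV arrays and 0.95, 0.77 and 0.95 on the septum arrays. Here the septum was the low region: its arrays lay below those of both ventricles, at 0.33 ± 0.10 (SE, limma adjusted p = 0.151) for RV minus septum and -0.42 ± 0.10 (SE, limma adjusted p = 0.665) for septum minus LV, neither called. Ccl7 (MCP-3) had levels of -0.20, -0.32, -0.40 and -0.24 on the RV arrays, -0.31, 0.50 and -0.04 on the LV arrays and -0.43, -0.39 and -0.58 on the septum arrays. Its septum arrays lay below all LV arrays, with septum minus LV at -0.52 ± 0.17 (SE, limma adjusted p = 1), and LV array 2 was the highest of all. Ccl12 (MCP-5) had levels of 0.88, 0.44, -0.11 and 0.46 on the RV arrays, 0.99, 0.98 and 0.68 on the LV arrays and 0.83, 0.48 and 0.15 on the septum arrays. Its regions overlapped, with RV minus LV at -0.47 ± 0.23 (SE, limma adjusted p = 0.295). Ccl8 (MCP-2), which in mice acts on Ccr8, had the largest SE of the 33 genes, and its levels were 0.39, 0.71, -0.28 and 0.38 on the RV arrays, 0.05, 0.27 and -1.52 on the LV arrays and 0.21, 0.10 and -1.38 on the septum arrays. LV array 3 and septum array 3, both on slide 2, were the lowest, and the SE of RV minus LV was 0.50 against a difference of 0.70. Ccr8, a receptor of regulatory and type 2 helper T cells, spanned -2.75 to -2.13 in the RV, -2.29 to -1.98 in the LV and -2.29 to -2.10 in the septum.

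Ccl5 (RANTES), a T cell and monocyte attractant, was kept, whereas Ccr1, a receptor of Ccl5, was not well above background on any array. Ccl5 had levels of -0.13, -1.42, -1.30 and -1.29 on the RV arrays, -1.20, -1.76 and -1.59 on the LV arrays and -1.12, -2.14 and -1.80 on the septum arrays. RV array 1 stood apart from all other arrays, and the other RV arrays lay among those of the LV and septum. The difference was 0.48 ± 0.34 (SE, limma adjusted p = 0.49) from the LV and 0.65 ± 0.34 (SE, limma adjusted p = 0.434) from the septum. Without RV array 1 these were 0.18 and 0.35. Ccl4 (MIP-1β), an attractant of monocytes and T cells, spanned -3.63 to -2.69 in the RV, -3.14 to -2.55 in the LV and -3.58 to -2.57 in the septum, and its neighbour Ccl3 was not kept, with 6 arrays well above background.

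**Figure D4:**
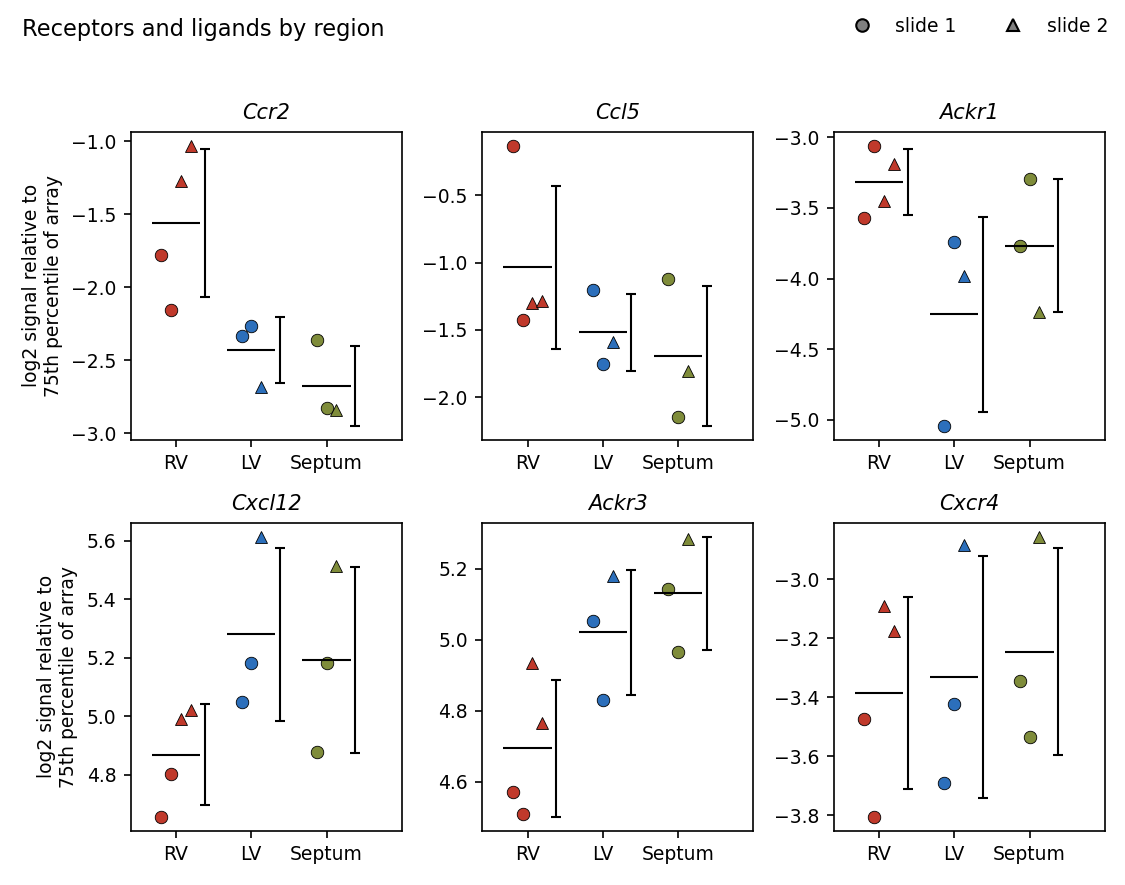
Levels of Ccr2, Ccl5, Ackr1, Cxcl12, Ackr3 and Cxcr4 on each array by region, as log2 signal relative to the 75th percentile of the array, with a separate vertical scale in each panel. Circles are arrays of slide 1 and triangles of slide 2; lines are means and bars SD (n = 4 RV, 3 LV and 3 septum arrays). All Ccr2 arrays of the RV lie above the others, RV array 1 of Ccl5 stands apart at -0.13, and the slide 2 arrays of Cxcl12 are the highest of their region.

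Ackr1, the Duffy antigen receptor of venular endothelium and red cells, binds many inflammatory chemokines. It was well above background on 4 of 4 RV, 0 of 3 LV and 2 of 3 septum arrays, with levels of -3.57, -3.06, -3.45 and -3.19 on the RV arrays, -5.04, -3.74 and -3.98 on the LV arrays and -3.77, -3.30 and -4.24 on the septum arrays. All RV arrays were above all LV arrays, and the septum overlapped with both. Ackr1 thus passed the filter through the RV arrays only. As the LV arrays were not well above background, a cautious fold is given: Ackr1 was 1.36-fold higher in the RV than in the LV. The measured means were -3.32 and -4.25, and the limma adjusted p of 0.139 did not pass. This fold is the mean over the RV arrays against, on each LV array, the higher of its own signal and the lowest signal among probes well above background. The difference was 0.93 in limma, 0.54 without LV array 1 and 0.36 with normexp background correction, so the 1.36-fold is not a lower limit across settings. A second probe of Ackr1 did not pass the filter, and its RV array 4 (-4.14) lay below LV array 2 (-3.99). The gene overlaps Cadm3 in the annotation, and whether the probe also reads that gene was not tested.

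Cxcl12 (SDF-1) acts on the signalling receptor Cxcr4, and Ackr3 (formerly Cxcr7) removes it from tissue. Cxcl12 had levels of 4.66, 4.80, 4.99 and 5.02 on the RV arrays, 5.05, 5.18 and 5.61 on the LV arrays and 4.88, 5.18 and 5.51 on the septum arrays. All RV arrays were below all LV arrays, with RV minus LV at -0.41 ± 0.18 (SE, limma adjusted p = 0.241) and RV minus septum at -0.32 ± 0.18 (SE, limma adjusted p = 0.472). Within each region the arrays of slide 2 were the highest. Ackr3 had levels of 4.57, 4.51, 4.93 and 4.76 on the RV arrays, 5.05, 4.83 and 5.18 on the LV arrays and 5.14, 4.97 and 5.28 on the septum arrays. Its RV arrays lay below all septum arrays, at -0.44 ± 0.13 (SE, limma adjusted p = 0.156), and overlapped with the LV, at -0.33 ± 0.13 (SE, limma adjusted p = 0.208). Cxcr4 was well above background on 3 of 4 RV, 2 of 3 LV and 3 of 3 septum arrays, with levels of -3.47, -3.81, -3.09 and -3.17 on the RV arrays, -3.69, -3.42 and -2.88 on the LV arrays and -3.34, -3.54 and -2.86 on the septum arrays, and its regions overlapped.

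A dimmer probe of Cxcl12, matched to a different RefSeq transcript of the gene, went the other way. Its mean was 0.62 ± 0.33 (SD, n = 4) in the RV, 0.25 ± 0.16 (SD, n = 3) in the septum and 0.17 ± 0.20 (SD, n = 3) in the LV. RV minus LV was 0.45 ± 0.18 (SE, limma adjusted p = 0.195) and RV minus septum 0.37 ± 0.18 (SE, limma adjusted p = 0.394), with overlapping arrays. With the mean of both probes in place of the brighter, the differences were 0.019 and 0.023, so the direction given for Cxcl12 here and with the blocks is that of the brighter probe. Neither probe of Cxcl12 was called without a block, and their disagreement was noticed after the values were seen.

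Both membrane-bound chemokines were kept with their receptors. Cx3cl1 (fractalkine), which is made as a membrane protein, had levels of -0.17, 0.01, 0.77 and 0.39 on the RV arrays, -0.09, 0.35 and 0.64 on the LV arrays and 0.23, 0.34 and 0.75 on the septum arrays. Its receptor Cx3cr1, found on resident macrophages and monocytes, had levels of 0.000, -0.26, 0.83 and 0.45 on the RV arrays, 0.08, 0.10 and 0.12 on the LV arrays and 0.15, 0.14 and 0.12 on the septum arrays. The LV and septum arrays of Cx3cr1 lay within a narrow band and the RV arrays on both sides of it. Its differences were 0.16 ± 0.22 (SE) from the LV and 0.12 ± 0.22 (SE) from the septum, and neither gene of the pair was called.

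Cxcl16, the other membrane-bound chemokine, also acts as a scavenger receptor for oxidised lipoprotein. It had levels of -0.08, -0.07, -0.01 and 0.03 on the RV arrays, -0.59, -0.31 and -0.20 on the LV arrays and -0.46, -0.21 and -0.32 on the septum arrays. Each RV array was above each LV and septum array, at 0.33 ± 0.10 (SE, limma adjusted p = 0.11) and 0.29 ± 0.10 (SE, limma adjusted p = 0.232), without a call. Its receptor Cxcr6, found on T and natural killer T cells, had levels of -0.78, -0.70, -1.08 and -1.01 on the RV arrays, -1.21, -1.01 and -1.28 on the LV arrays and -1.06, -1.09 and -1.34 on the septum arrays. The regions overlapped, at 0.28 ± 0.12 (SE, limma adjusted p = 0.243) from the LV and 0.27 ± 0.12 (SE, limma adjusted p = 0.356) from the septum. A dimmer second probe of Cxcr6 differed by 0.56 ± 0.15 (SE, limma adjusted p = 0.0723) from the LV, with all RV arrays above all LV arrays, and by 0.38 ± 0.15 (SE, limma adjusted p = 0.289) from the septum. Cxcl16 overlaps Zmynd15 and Cxcr6 overlaps Fyco1 in the annotation.

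Across the family, the arrays of RV and LV did not overlap for 7 genes higher in the RV (among them Ackr1, Ccl11, Ccl19, Ccl24, Ccr2 and Cxcl16), with 9.17% of all genes in that state, and for 2 lower in the RV (Cxcl12 and Cxcl14), with 13.4% of all genes. Ackr1 passed the filter through the RV arrays only, which favours its place among the 7. Against the septum there were 5 higher in the RV (Ccl11, Ccl2, Ccl24, Ccr2 and Cxcl16), with 6.95% of all genes, and 1 lower (Ackr3), with 9.04%. Between septum and LV there were 2 higher in the septum (Ccl19 and Cx3cr1, whose small difference had the other sign on its second probe and when arrays were scaled by the median), with 3.64% of all genes, and 2 lower (Ccl2 and Ccl7), with 3.77%.

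Taking out what arrays of the same number share added calls. Arrays of the same number deviated together, and the replicate number was fitted as a block, in which RV array 4 has no partner and adds nothing. Arrays of different number on 1 slide also deviated together. On slide 2, RV array 4 was closer to LV array 3 and septum array 3 than RV array 3 was. The block is thus no evidence that arrays of 1 number came from 1 heart. With this block 10 genes were called between RV and LV: Ccl11, Ccl19, Ccl24, Ccl6, Ccl9, Cxcl16 and Cxcr6 were higher in the RV, with 7.26% of all genes called in that direction, and Ackr3, Ccl4 and Cxcl12 were lower, with 10.6% of all genes. Between RV and septum it called 8, of which Ccl11, Ccl24, Ccl5, Ccl6, Ccl9 and Cxcr6 were higher in the RV, with 4.18% of all genes, and Ackr3 and Cxcl12 were lower, with 4.51%. With the slide as the block, 9 were called between RV and LV, 7 of them higher (8.82% of all genes) and 2 lower (12.5%), and 8 between RV and septum, 6 higher (5.34%) and 2 lower (5.71%). The slide block called neither Ccl4 nor Ccl5 and added Ccr2 between RV and septum.

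Ccl6 and Ccl9, neighbouring macrophage chemokines that act on Ccr1, were among these. Ccl6 had levels of 3.58, 3.85, 3.32 and 3.32 on the RV arrays, 2.99, 3.46 and 2.68 on the LV arrays and 2.95, 3.39 and 2.48 on the septum arrays. Array 2 was the highest in every region. Without a block RV minus LV was 0.47 ± 0.25 (SE, limma adjusted p = 0.33), and with the replicate block it was 0.54 (adjusted p = 0.0146) and 0.64 (adjusted p = 0.0129) against the septum. Ccl9 had levels of 2.31, 2.47, 2.28 and 2.21 on the RV arrays, 1.82, 2.21 and 1.61 on the LV arrays and 1.80, 2.21 and 1.48 on the septum arrays, again with array 2 the highest in every region. Its difference with the replicate block was 0.47 (adjusted p = 0.0347) from the LV and 0.53 (adjusted p = 0.039) from the septum. The others that the replicate block added between RV and LV were Cxcl16 at 0.31 (adjusted p = 0.0497), Cxcr6 at 0.32 (adjusted p = 0.031), Ackr3 at -0.35 (adjusted p = 0.0222), Cxcl12 at -0.46 (adjusted p = 0.0167) and Ccl4 at -0.40 (adjusted p = 0.0391). Against the septum it added Ccl5 at 0.74 (adjusted p = 0.0443), Cxcr6 at 0.31 (adjusted p = 0.0472), Ackr3 at -0.46 (adjusted p = 0.0159) and Cxcl12 at -0.37 (adjusted p = 0.039).

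The interferon-induced ligands of Cxcr3 were kept without their receptor, which was well above background on 3 arrays. Cxcl9 had levels of -0.64, -0.91, -1.01 and -1.28 on the RV arrays, -0.54, -0.75 and -0.93 on the LV arrays and -0.83, -0.55 and -1.47 on the septum arrays. Cxcl10 had levels of -3.89, -3.87, -2.56 and -2.85 on the RV arrays, -2.95, -2.15 and -3.12 on the LV arrays and -2.98, -3.66 and -2.41 on the septum arrays, with 3 arrays of each region well above background. Both overlapped between all regions, at -0.22 ± 0.22 (SE) and -0.55 ± 0.41 (SE) for RV minus LV. Cxcl10 overlaps Art3 in the annotation.

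Cxcl14, a chemokine of epithelium and connective tissue, had levels of 2.62, 2.68, 2.51 and 2.45 on the RV arrays, 2.68, 3.18 and 3.20 on the LV arrays and 2.35, 2.79 and 2.70 on the septum arrays. The LV had the highest mean. LV array 1 and RV array 2 were level at 2 decimals and the other LV arrays were above all RV and septum arrays, while LV array 1 lay below 2 septum arrays. RV minus LV was -0.46 ± 0.15 (SE, limma adjusted p = 0.133) and septum minus LV -0.40 ± 0.16 (SE, limma adjusted p = 1), neither called.

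Ccl25 (TECK), which guides thymocytes and gut T cells through Ccr9, had levels of -0.29, -0.18, -0.27 and -0.46 on the RV arrays, -0.40, 0.01 and -0.32 on the LV arrays and -0.32, -0.10 and -0.48 on the septum arrays. Ccr9 was well above background on 4 of 4 RV, 2 of 3 LV and 2 of 3 septum arrays, with levels of -2.86, -3.21, -3.91 and -4.12 on the RV arrays, -2.82, -2.78 and -3.76 on the LV arrays and -2.78, -2.55 and -3.90 on the septum arrays. In both genes array 2 was the highest of its LV and septum groups and the regions overlapped. Ccl27a, a skin T cell attractant that acts on Ccr10, had levels of 2.24, 2.04, 1.82 and 1.90 on the RV arrays, 1.96, 1.77 and 1.82 on the LV arrays and 2.03, 1.80 and 1.66 on the septum arrays. It overlapped between regions, at 0.15 ± 0.12 (SE) for RV minus LV, and its copy Ccl27b and the overlapping gene Il11ra1 could share its signal.

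The remaining atypical receptors were Ackr2 (D6), which takes up inflammatory CC chemokines, and Ackr4, which takes up Ccl19, Ccl21 and Ccl25. Ackr2 had levels of -0.88, -0.68, -0.03 and -0.19 on the RV arrays, -0.82, -0.66 and -0.37 on the LV arrays and -0.41, -0.17 and -0.11 on the septum arrays. In each region array 1 was the lowest, and the regions overlapped, with RV minus LV at 0.17 ± 0.21 (SE) and RV minus septum at -0.21 ± 0.21 (SE). Ackr4 had levels of -1.44, -0.76, -1.24 and -1.91 on the RV arrays, -0.67, -0.67 and -1.62 on the LV arrays and -0.73, -0.84 and -1.66 on the septum arrays. Its lowest arrays were RV array 4, septum array 3 and LV array 3, all on slide 2, and RV minus LV was -0.36 ± 0.34 (SE).

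The 25 genes that were not kept were 14 ligands and 11 receptors. Not well above background on any array were Ccl1, Ccl20, Ccl22, Cxcl15, Cxcl17, Cxcl2, Xcl1, Ccr1, Ccr1l1, Cxcr1, Cxcr2, Cxcr5 and Xcr1. On 1 to 3 arrays were Ccl17, Ccl26, Ccl28, Cxcl3, Ccr10, Ccr3, Ccr4, Ccr6 and Cxcr3. Cxcl5, Ccl3 and Cxcl13 reached that mark on 5, 6 and 7 arrays without filling a region. The receptors of neutrophils (Cxcr1 and Cxcr2) and of follicular B cells (Cxcr5) were thus not measured above background in any region.

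Genes that work with chemokines were taken from 5 lists, to be read against the 3.14% of all genes called higher in the RV than in the LV and the 1.68% called higher than in the septum. Of 30 signalling genes kept, 2 were called higher in the RV than in the LV: Gnai1, an inhibitory G protein subunit (1.02 ± 0.22, SE, limma adjusted p = 0.0359), and Arrb1, the β-arrestin that ends receptor signalling (0.37 ± 0.08, SE, limma adjusted p = 0.0363). Of 21 genes of chemokine cleavage and presentation, 2 were called higher in the RV than in the LV and than in the septum, both heparan sulfate carriers. Gpc3 (glypican-3) differed by 1.47 ± 0.23 (SE, limma adjusted p = 0.00954) from the LV and by 1.87 ± 0.23 (SE, limma adjusted p = 0.00526) from the septum. Sdc4 (syndecan-4) differed by 0.46 ± 0.09 (SE) from each, with limma adjusted p = 0.0237 and 0.0354.

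Of 18 leukocyte adhesion genes, 3 were called higher in the RV than in the LV. They were Itgax, the integrin CD11c (1.29 ± 0.21, SE, limma adjusted p = 0.0122), Vcam1, an endothelial ligand of leukocyte integrins (0.60 ± 0.13, SE, limma adjusted p = 0.0349), and Selplg, the P-selectin ligand (0.55 ± 0.12, SE, limma adjusted p = 0.0421). Not called in limma, in any pair of regions, were all 20 genes of chemokine induction, among them Nfkb1 and Tnf, and all 9 chemokine-related genes with other names, among them Pf4 and Ccrl2. With the slide as a block, 2 of the induction genes were called between RV and LV, 1 higher and 1 lower in the RV. Of those with other names, 3 were called higher in the RV than in the LV (Pf4, Rarres2 and Cklf), and Pf4 and Rarres2 also than in the septum. Rarres2 differed most, by 0.86 from the LV and 1.003 from the septum (limma adjusted p = 0.00065 and 0.000314). In limma without a block, no gene of the 5 lists was called lower in the RV or between septum and LV; with the slide as a block, Tlr4, Gpc1, Hs6st1, Rgs5 and Rgs16 were called lower in the RV than in the LV, and Tlr4 also than in the septum. In that fit 7 of the signalling, 4 of the cleavage and presentation and 6 of the adhesion genes were called higher in the RV than in the LV, where 8.82% of all genes were.

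Markers of other cell types differed between the same arrays. The score of a marker list is the mean over its genes of how far each level lies from that gene's average across the arrays. The adipocyte score (8 of 8 markers kept, 4 called higher in the RV than in the LV: Adipoq, Plin1, Retn and Cidec) was 0.68 to 1.09 in the RV, -1.35 to -0.78 in the LV and -0.42 to 0.38 in the septum. Those 4 carried the score: the other 4 markers, Lep, Fabp4, Pparg and Lpl, had differences of -0.24 to -0.15 from the LV and -0.16 to -0.07 from the septum and were not called. The mesothelial score (9 of 10 kept, 8 called higher in the RV than in the septum and 1, Krt18, than in the LV) was 0.55 to 1.96, -0.70 to 0.08 and -2.72 to -0.81. The fibroblast score (10 of 10 kept, 3 called between RV and LV: Pdgfra, Dcn and Tcf21) was -0.03 to 0.66, -0.46 to -0.20 and -0.15 to 0.05. Adipocyte and mesothelial scores did not overlap between the RV and the other regions, and neither did the dendritic cell and lymphatic endothelial scores given below. The part of any of these cell types in the levels of Ccl11 and Ccl24 was not tested.

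Between RV and LV, the median difference of each leukocyte list was smaller than those of the adipocyte, mesothelial and fibroblast lists. Against the septum this did not hold: the median of the mast cell list was 0.62, with 4 of 6 markers above 0, and that of the fibroblast list 0.37. The macrophage score (14 of 14 markers kept, none called in limma) was 0.05 to 0.39 in the RV, -0.40 to 0.10 in the LV and -0.51 to 0.13 in the septum, and all 14 differences lay above 0 against both regions, with 5 called against the LV and 6 against the septum when the slide was a block. The dendritic cell score (5 of 6 kept, 1 called: Itgax) was 0.15 to 0.44, -0.40 to -0.07 and -0.10 to -0.05, with no overlap between the RV and the others. The lymphatic endothelial score (5 of 6 kept, none called in limma) was 0.15 to 0.31, -0.27 to 0.06 and -0.42 to 0.01. Of its 5 markers 3 lay above 0 for RV minus LV, and with the slide as a block 2, Pdpn and Lyve1, were called higher in the RV than in either region. For T and natural killer cells 7 of 12 markers were kept, with Cd3g, Trac and Cd8a among those not kept, for B cells 5 of 8, without Ms4a1, and for neutrophils 4 of 6, without Ly6g; none of those kept was called in limma. None of the monocyte, mast cell, smooth muscle and platelet or red cell markers was called in limma either, and of 10 blood endothelial markers 1, Vwf, was called higher in the RV (RV minus LV 1.65 ± 0.20, SE, limma adjusted p = 0.00377; RV minus septum 1.18 ± 0.20, SE, limma adjusted p = 0.0212). With the slide as a block, 4 blood endothelial markers were called higher in the RV than in the LV and 2 lower (Cdh5 and Kdr). Of the smooth muscle markers 3 were called higher and 2 lower (Des and Rgs5), and of the monocyte markers 1 higher and 1 lower (Ly6c2). Of the platelet and red cell markers 1, Gp1bb, was called lower. In that fit 8.82% of all genes were called higher in the RV than in the LV and 12.5% lower. Against the septum it called 1 blood endothelial, 1 smooth muscle and 1 mast cell marker (Cma1) higher in the RV, where 5.34% of all genes were. The part of these cell types in the levels of Ccl19, Ccr2 and the other genes was not tested.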

How the data were processed

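The samples were total RNA of RV (n = 4), LV (n = 3) and septum (n = 3), grouped by title. Intensity values were made by the authors with Agilent Feature Extraction (version 11.5.1.1), which subtracted background and flagged spots, and were deposited unscaled. A table of log2 values that the authors made with GeneSpring was deposited too. It equals the values used here, but for a constant per array, to within 0.00718, and served as an alternative.

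Log2 of the processed signal was taken, control spots and the 56 to 128 outlier spots of each array were dropped, repeated spots were averaged and each array was shifted to put its 75th percentile at 0. Probes with a signal well above background on all arrays of 1 region or more were kept (30234 of 56605). Symbols came from RefSeq accessions (58.3% of probes), and the brightest kept probe stood for a gene. limma (3.58.1, R 4.3.3) fitted 1 mean per region over all 10 arrays, with no covariate and 2.46 prior degrees of freedom. Tests were two-sided with Benjamini-Hochberg adjustment over all probes, and the fit was tested on simulated data. Each array was treated as 1 replicate.

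The genes, lists and rules were chosen with earlier results of these data known. All kept genes are named but 1, which is not reported here and is counted in the totals. Each array's value is given for called genes, the 5 with the largest differences, ligand and receptor partners and atypical receptors, and also for Ccl6, Ccl8, Ccl9 and Cxcl14, chosen after their values were seen.

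Deviations from the region means correlated at 0.359 to 0.645 between arrays of the same replicate number, 9 pairs, all on the same slide, at 0.0906 to 0.577 between arrays of different number on 1 slide and at -0.564 to -0.207 between slides. On slide 1 alone these were 0.359 to 0.523 for the same number and 0.0906 to 0.309 for different numbers. On slide 2, RV array 4 correlated at 0.572 with LV array 3 and at 0.577 with septum array 3. RV array 3, which shares their number, did so at 0.426 and 0.443. The number was taken to pair the samples, although the labels state no pairing and on slide 2 RV array 4 was the closer one. Alternatives were other scalings, normexp background correction, the authors' table, other filters, the mean of a gene's probes, slide and replicate number as blocks, each slide alone, each array left out, and the methods' analysis of variance with Tukey's correction.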

Additional observations from a re-analysis of the deposited data

Results flagged for a closer look

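Ccl5 on RV array 1, at a level of -0.13, stood farther from the other RV arrays (-1.42 to -1.29) than the spread among the RV arrays allows by Dixon's criterion at 95%. The RV is the only region with 4 arrays, so only there was the criterion applied, to the 33 genes, of which 1 met it. Chance gives about 1 in 20.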

How the results depend on the processing

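Without a filter on dim probes 2 genes (Ccl11 and Ccl19) were called between RV and LV, 0 between RV and septum and 0 by the F test, with the same differences. In that fit 269 of 56605 probes were called between RV and LV and 112 between RV and septum. Quantile normalization, scaling by the median or by probes measured on all arrays, normexp, the authors' table, probes measured on all arrays only and the mean of a gene's probes each kept the 3, 2, 0 and 3 calls of RV against LV, RV against septum, septum against LV and the F test. The 3 scalings changed the sign of at most 5 small differences per comparison (Ccl21a, Cx3cl1, Cxcr4 and Cxcl9 among those with the RV), none of them called. With the mean of a gene's probes Cxcl12 changed direction, to 0.019 for RV minus LV and 0.023 for RV minus septum. Of 741 alternative values of 16 genes whose direction is described or that a block called, these 2 changed direction, 34 lost a call and 39 gained one.

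The replicate block, following the pairing of the numbers, called 10 genes between RV and LV, 8 between RV and septum, 0 between septum and LV in limma, and 8 by the F test; the slide block called 9, 8, 0 and 10. Slide 1 alone called 2, 0, 0 and 0, where 821, 478 and 0 of 30234 probes were called in the pairs. Slide 2 alone held 1 LV and 1 septum array, and its counts are not given here. Leaving out 1 array at a time gave 2 to 3 calls between RV and LV, 0 to 2 between RV and septum and 1 to 3 by the F test. Those fits called 390 to 980 of 30234 probes between RV and LV and 118 to 542 between RV and septum. The methods' analysis of variance with Tukey's correction called 5, 6 and 2 in the pairs and 7 overall before adjustment. In the pairs 3998, 2754 and 435 of 30175 probes were called. With Benjamini-Hochberg adjustment of the overall p only, it called 2, 1 and 1, where 784, 760 and 168 probes were called. The last was Ccl19 between septum and LV (difference 0.95). A call needed the adjusted overall p and Tukey's p of the pair below 0.05, and the larger for Ccl19 was 0.0374. Tukey's p was not adjusted over probes.

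The cause of these changes was not tested. The files hold no mean signal, so normexp ran on the median signal, which was chosen after seeing the data, and the planned version on the mean signal was not run. Signal near background limits Ackr1, Ccl4, Ccr7, Ccr9, Cxcl10 and Cxcr4.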
